A study of Mus musculus with 24 samples.

Results

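The report covers chromosomes 3, 5 and 6 of the mouse genome in cells that lack the chromatin deacylase SIRT7 (KO) and in wild-type (WT) cells. The members are 1 Mb bins, chosen by chromosome and by a mean count of at least 100 reads. They number 453 of the 2582 bins of chromosomes 1 to 19 and X that passed the same count minimum in both deposited tables. Chromosome 3 contributed 157 bins, chromosome 5 contributed 149 and chromosome 6 contributed 147. The 3 chromosomes were selected on the KO against WT values of the first table, so those values are given as a description and carry no test. The 10 bins of these chromosomes left out held a mean of at most 1.2 reads, and the lowest member held 46298.2 reads on average. Just inside the selection, chromosome 3 had a log2 KO/WT value of -0.2088 in γH2AX. Just outside it, chromosome 7 had -0.0943 in γH2AX, and chromosome 17 had -0.2032 in H2AX and -0.1956 in input. The chromosome 17 value in γH2AX was -0.0218 for the summed reads but -0.195 for the median bin, with 91 of 92 bins lower.

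The study profiled chromatin of female C57BL6/CAST hybrid mouse cells, named TTF in the labels, with each parental genome distinguishable by sequence. The samples were SIRT7-KO cells and WT cells, the KO clones c22 and c9, and these KO clones with SIRT7-WT added back. Further clones, called HY here, are titled S7HY (c5 and c7), with the same S7 prefix as the S7KO clones. HY and TTF are not explained in the labels. All samples, controls included, are labelled as given 5 Gy of X-rays followed by 30 minutes of recovery. Each group has 2 samples per assay: γH2AX and H2AX chromatin immunoprecipitation (ChIP) everywhere, and input DNA in KO and WT cells. The KO and WT columns of the first table end in NT or Xray, although every label states X-rays, so a KO or WT library is referred to by that ending, as NT-named or as Xray-named.

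H2AX is a histone variant scattered through nucleosomes of the whole genome. When DNA breaks, kinases of the damage response phosphorylate its tail, and the resulting γH2AX spreads over the chromatin around the break. SIRT7 removes acyl groups from histones and is known for roles in the nucleolus and in DNA repair. Input DNA is sheared chromatin without an antibody, so its reads follow the amount of DNA in the sample and how readily each region is sheared, sequenced and mapped. A share of reads is relative: where some chromosomes take a larger share, others must take a smaller one, and the total amount of DNA per cell is not measured.

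A pair of promoters of list genes is given as an example of sequence on these chromosomes. Among the list genes of these chromosomes with a RefSeq promoter, Ung, a uracil-DNA glycosylase of base excision repair, lay in the bin with the highest γH2AX over input in WT cells, and Col11a1, a collagen chain, in the bin with the lowest. The promoters are given 5′ to 3′ on the plus strand of GRCm38.p6, the assembly behind mm10, from RefSeq: chr5:114130185-114130484 for Ung and chr3:114030290-114030589 for Col11a1. Capitals mark each CG dinucleotide, the site of DNA methylation.
Ung: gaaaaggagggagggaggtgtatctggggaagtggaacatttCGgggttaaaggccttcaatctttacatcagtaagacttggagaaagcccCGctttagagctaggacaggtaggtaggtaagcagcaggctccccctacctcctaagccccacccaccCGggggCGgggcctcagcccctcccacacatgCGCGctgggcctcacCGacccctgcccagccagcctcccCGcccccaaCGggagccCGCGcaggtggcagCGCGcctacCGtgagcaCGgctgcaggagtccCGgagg
Col11a1: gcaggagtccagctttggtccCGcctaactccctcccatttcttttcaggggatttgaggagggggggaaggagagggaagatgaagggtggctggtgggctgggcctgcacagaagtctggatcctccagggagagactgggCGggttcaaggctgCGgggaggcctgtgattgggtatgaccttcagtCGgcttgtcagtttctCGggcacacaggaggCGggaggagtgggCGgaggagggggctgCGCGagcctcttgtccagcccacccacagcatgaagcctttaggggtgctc
The Ung promoter held 16 CG dinucleotides and 64.7% G and C, and the Col11a1 promoter held 9 and 62.3%. Of all 32851 promoters in the RefSeq table, 33.0% held at least 16 such dinucleotides and 56.5% held at most 9, and the median was 7. The ChIP values belong to the 1 Mb bins, with 23 and 2 protein-coding genes, and were not measured at the promoters themselves.

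Depth was high for bins of this size. The KO and WT libraries held 170013624 to 268180310 reads, with 51006 to 96340 in the median bin of chromosomes 3, 5 and 6. The clone libraries held 70349148 to 155364952 reads, with 22157 to 48520 in that median bin, so counting error was small against the spread between libraries. In every assay, WT replicate 2 of the second table repeated the counts of the first table's NT-named WT library in 453 of 453 bins, whereas WT replicate 1 matched it in 0. The 2 tables thus hold 3 distinct WT libraries per assay for 2 labelled WT samples, so 1 of them has no sample of its own in the labels. The clones were therefore compared with 1 WT library that had served in the choice of chromosomes and 1 that had not. The bin with Sirt7 itself, chr11:120000001-121000000, held 0.218% and 1.022% of autosomal γH2AX reads in KO clones with SIRT7-WT, against 0.061% and 0.044% in KO clones.

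Chromosomes 3, 5 and 6 held a smaller share of reads in KO cells than in WT cells, and did so in input DNA as much as in either ChIP. Together they took 14.4% to 14.6% of autosomal reads in the 6 KO libraries and 16.9% to 17.4% in the 6 WT libraries. In input, chromosome 3 took 5.205% and 5.194% in the NT-named and Xray-named KO libraries, against 6.133% and 6.108% in WT. Chromosome 5 took 4.975% and 4.980% of input reads in KO cells, against 5.835% and 5.843% in WT cells. Chromosome 6 took 4.437% and 4.451% in KO cells, against 5.383% and 5.374% in WT cells. The 2 libraries of a group lay close together, and no KO library reached a WT library on any of the 3 chromosomes.

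The same holds for the histone ChIPs. In H2AX the KO libraries had 4.905% and 4.892% of reads on chromosome 3, 5.093% and 5.105% on chromosome 5 and 4.409% and 4.407% on chromosome 6. The WT libraries had 5.754% and 5.706%, 5.986% and 6.082%, and 5.305% and 5.319% on these chromosomes. In γH2AX, chromosome 3 had 5.056% and 4.993% in KO cells against 5.813% and 5.801% in WT cells. Chromosome 5 had 4.993% and 5.137% in KO cells against 5.829% and 6.075% in WT cells, and chromosome 6 had 4.370% and 4.420% against 5.238% and 5.342%.

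Expressed as a change, the KO share relative to the WT share was -15.0% to -13.5% on chromosome 3, -15.5% to -14.8% on chromosome 5 and -17.4% to -16.9% on chromosome 6, over the 3 assays. On the log2 scale, chromosome 6 lay at -0.2753 in input, -0.2692 in H2AX and -0.2676 in γH2AX. Chromosome 3 lay at -0.2353, -0.2261 and -0.2088, and chromosome 5 at -0.2302, -0.243 and -0.233, in the same order of assays. They were the 3 lowest of 20 chromosomes in each assay. The gap to the next differed: chromosome 17 followed at -0.1956 in input and -0.2032 in H2AX, whereas in γH2AX chromosome 7 came next at -0.0943. Taken within the NT-named or within the Xray-named libraries, the 3 chromosomes lay between -0.20 and -0.28 in every assay.

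**Figure D1:**
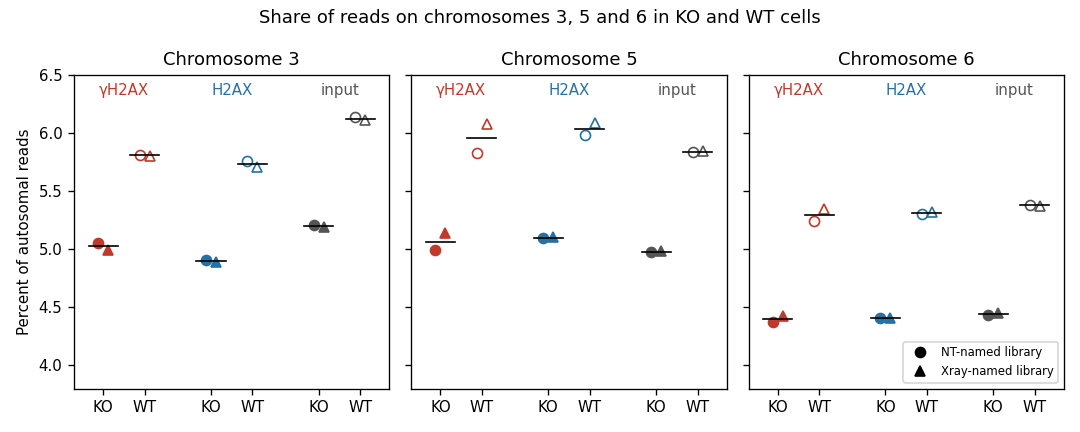
Percent of autosomal reads on chromosomes 3, 5 and 6 (vertical axis, which does not start at 0) in each γH2AX, H2AX and input library of KO cells (filled) and WT cells (open); the black line is the mean of the 2 libraries of a group. KO libraries sit below WT libraries in every panel, with changes of -17.4% to -13.5% relative to the WT mean.

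The ChIP signals relative to input differed little between the genotypes. The log2 KO/WT value of γH2AX minus that of input was 0.0265 ± 0.0121 (standard error) on chromosome 3, -0.0028 ± 0.0284 on chromosome 5 and 0.0077 ± 0.0144 on chromosome 6. For H2AX minus input, it was 0.0091, -0.0128 and 0.0061. Each of these differences was small beside the lowering itself, which was -0.2088 or more negative on the same log2 scale. Reads of bulk samples cannot tell a loss in every cell from a larger loss in some of them.

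The lower share ran along the chromosomes from end to end. After scaling each library by edgeR's trimmed mean of M-values (TMM), KO lay below WT in 452 of 453 bins in input, 451 in H2AX and 450 in γH2AX. Among the 1961 bins of other autosomes, 49.0%, 57.8% and 54.7% lay below WT in these assays. In input the median bin was at -0.216 on chromosome 3, -0.202 on chromosome 5 and -0.246 on chromosome 6. The spread over bins was small, with an SD of 0.0342 on chromosome 6, 0.0385 on chromosome 5 and 0.0639 on chromosome 3. Several other autosomes were as even around their own level, chromosome 17 with an SD of 0.033 around -0.162 and chromosome 10 with 0.0405 around 0.421, so evenness was not special to these 3.

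Chromosome 6 was the most uniform, at -0.243, -0.249 and -0.244 in its proximal, middle and distal stretches of equal bin number in input. Chromosome 5 had -0.204, -0.191 and -0.193. Chromosome 3 was the least even, at -0.230 in the proximal stretch, -0.187 in the middle and -0.190 in the distal one, and its 10 Mb windows ran between -0.249 and -0.133. The shallowest window, chr3:60000001-70000000, had -0.133 in input, -0.161 in H2AX and -0.158 in γH2AX, and the window chr3:130000001-140000000 had -0.165, -0.156 and -0.162. The 3 assays lay close together in these windows. They lay apart at the start of the chromosome, where the first window had -0.249 in input and -0.243 in H2AX but -0.157 in γH2AX.

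The outermost bins were lowered in input like the rest. There the first bin of chromosome 3, with Hnf4g, a nuclear receptor, had -0.2432 and the last, with the Wnt carrier Wls, had -0.2335. On chromosome 5 the first bin, with the cell cycle kinase Cdk6, had -0.1697 and the last, with the clamp-loader subunit Rfc3, had -0.1636. On chromosome 6 the first bin, with the calcitonin receptor Calcr, had -0.1821 and the last, with the dynein adaptor Bicd1, had -0.2378. In γH2AX the ends of chromosome 6 differed more, at -0.0274 in the first bin and -0.3977 in the last. The lowest input values were -0.3245 in chr3:34000001-35000000, which holds the pluripotency factor Sox2, -0.3489 in chr5:49000001-50000000 with Adgra3, and -0.3327 in chr6:92000001-93000000 with Prickle2.

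**Figure D2:**
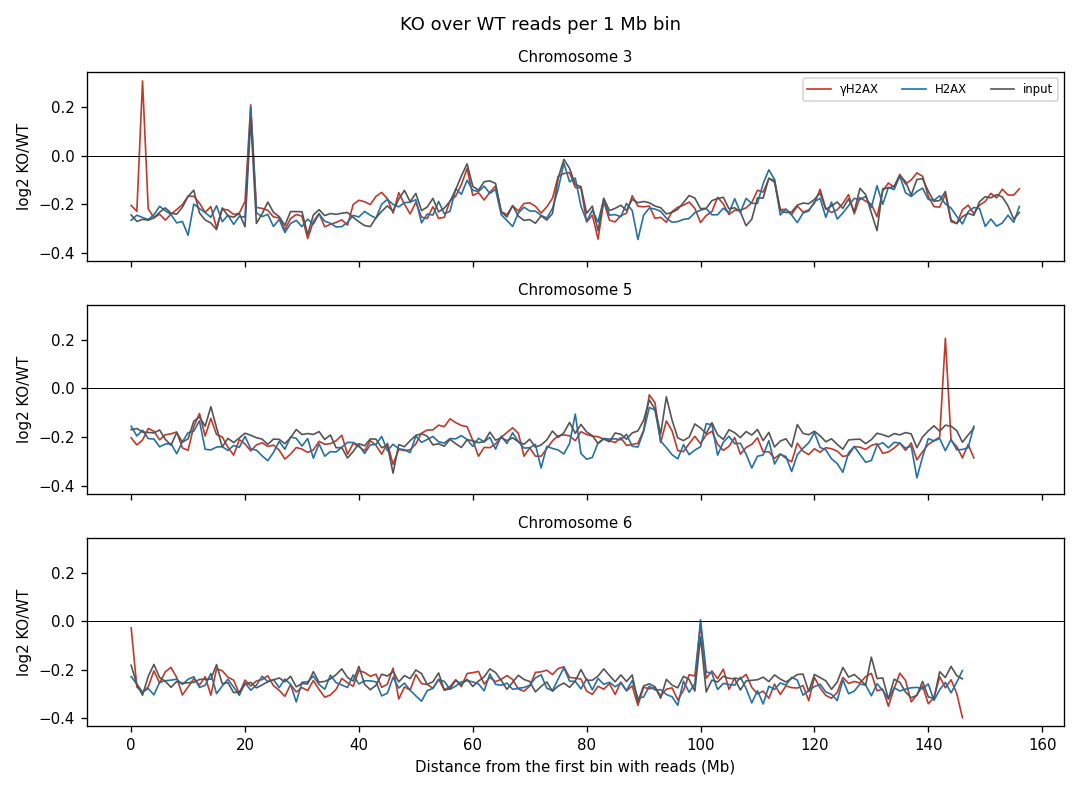
Log2 ratio of KO to WT reads (vertical axis) in each 1 Mb bin of chromosomes 3, 5 and 6, by distance in Mb from the first bin with reads (horizontal axis), in γH2AX, H2AX and input. The lines run below 0 from end to end, with a single bin of chromosome 3 above 0 in all assays and isolated γH2AX peaks near one end of chromosomes 3 and 5.

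One bin was higher in KO in every assay. The bin chr3:24000001-25000000, in which no protein-coding gene starts, had 286.1 and 295.8 CPM (counts scaled to the library total) in input of KO cells, against 259.3 and 264.1 CPM in WT cells, a log2 value of 0.1529. Its log2 value was 0.2007 in H2AX and 0.2098 in γH2AX. In KO cells the bin stood level with its neighbours on either side, at 102% and 105% of their mean in input. In WT input libraries of the first table it stood at 75.5% and 77.6% of its neighbours, and WT replicate 1 of the second table had 76.0%. The HY clones differed from each other in this bin, at 85.7% and 53.2% of the neighbours in γH2AX and 82.1% and 49.9% in H2AX. The KO clones with SIRT7-WT had 98.6% and 97.7% in γH2AX, and the KO clones 98.1% and 98%, against 71.4% and 72.9% in WT cells. In H2AX they were lower, at 89.5% and 88.3% in KO clones with SIRT7-WT and 92.6% and 88.9% in KO clones, against 70.1% and 73.9% in WT cells. The share of parent-assigned reads from genome1 was 66.2% to 68.6% in the 6 WT libraries there.

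The other KO values above 0 were confined to 1 assay each. In γH2AX they were 0.3082 in chr3:5000001-6000000 and 0.2064 in chr5:146000001-147000000, 2 bins that also had the highest γH2AX over input of their chromosomes. In H2AX it was 0.0056 in chr6:103000001-104000000, the bin of the adhesion molecule gene Chl1. That bin took several times the reads of an ordinary one, with 1365 and 1376 CPM in KO input and 1442 and 1426 CPM in WT input.

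Parental counts were used for the WT libraries of the second table, whose column names carry the labels' replicate numbers. Of reads assigned to a parent, genome1 supplied 67.979% on chromosome 3 (67.908% to 68.035% over the 6 WT libraries of γH2AX, H2AX and input), 50.143% on chromosome 5 (50.011% to 50.322%) and 66.97% on chromosome 6 (66.661% to 67.164%). The median of the other autosomes was 54.666%. Chromosomes 3 and 6 had the highest genome1 shares of all 20 chromosomes, and chromosome 5 stood at rank 13, so the 3 chromosomes that were lower in KO cells were not alike in parental makeup. The labels and headers do not say which parent genome1 is. Parental columns of the KO libraries and clones were not used here.

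The imbalance was flat over long stretches. The median bin had 70.63% genome1 on chromosome 3, 71.15% on chromosome 6 and 50.74% on chromosome 5, and 144 of 157, 124 of 147 and 1 of 149 bins lay over 60%. Chromosome 5 held 137 bins between 45% and 55%. Departures were grouped: on chromosome 3 the windows between 30 and 60 Mb had 56.6% to 61.2%, and on chromosome 6 the last 2 windows had 50.0% and 51.5%. Single bins there fell far below, to 25.3% in chr3:49000001-50000000 and 21.0% in chr6:130000001-131000000, which holds the Klra cluster of natural killer cell receptor genes. On chromosome 5 the lowest were chr5:40000001-41000000 with 34.4% and chr5:84000001-85000000 with 34.7%. The narrow ranges given above hold input and both ChIPs, so the imbalance was present in input DNA as well as in the ChIP libraries.

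**Figure D3:**
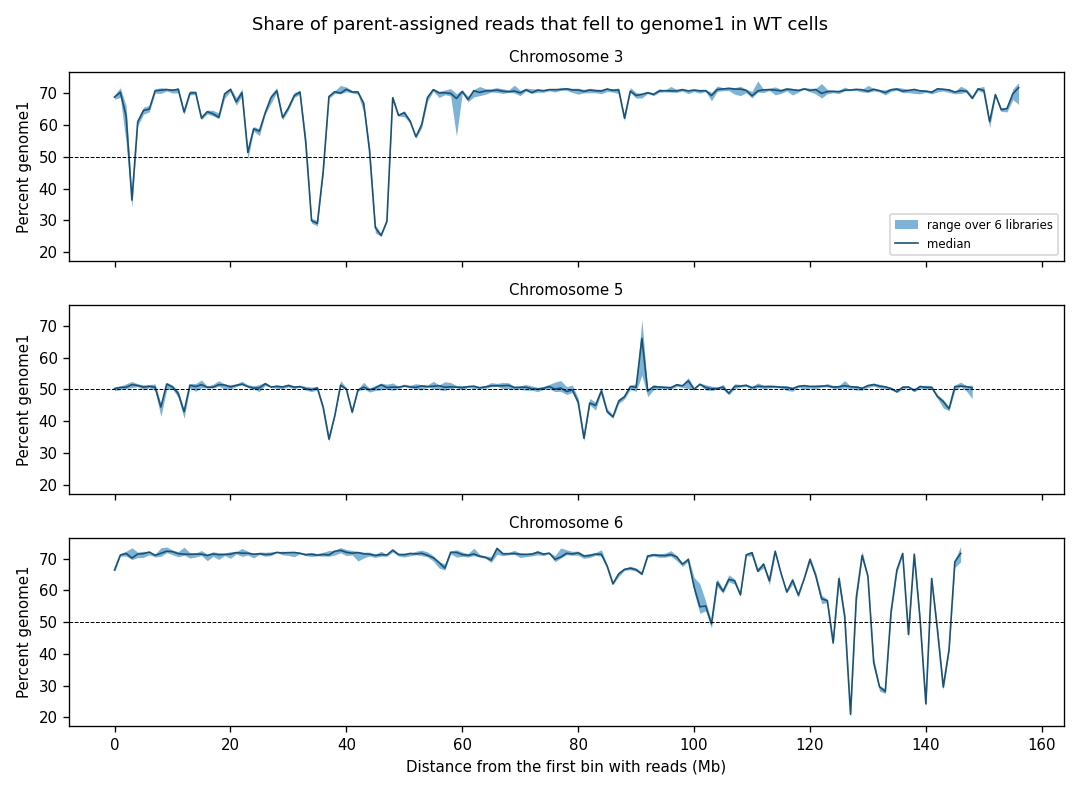
Percent of parent-assigned reads that fell to genome1 (vertical axis) in each 1 Mb bin of chromosomes 3, 5 and 6 in WT cells, by distance in Mb from the first bin with reads (horizontal axis). The line is the median and the band the range over 6 libraries. Chromosomes 3 and 6 run near 71% over long stretches and chromosome 5 near 51%. All libraries share the dips, which group in the proximal part of chromosome 3 and toward the end of chromosome 6.

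The ChIPs were next compared with input within a genotype, a comparison that the choice of chromosomes did not use. Nothing says that the 2 libraries of a group came from separate cultures, so the p-values measure the spread between these libraries. Over bins, NT-named and Xray-named γH2AX libraries differed alike in KO and WT cells (r = 0.959). Part of that spread in γH2AX thus went with the names. On chromosome 3 both ChIPs lay below input. γH2AX stood at -0.0494 on the log2 scale in KO cells (edgeR quasi-likelihood test on chromosome sums, adjusted p = 0.00417) and at -0.0759 in WT cells (adjusted p = 0.000207). H2AX stood at -0.0861 in KO cells (adjusted p = 0.000164) and at -0.0952 in WT cells (adjusted p = 7.67e-05), in edgeR's test. Without the bins that hold over 1% of autosomal reads, an alternative added after seeing the data, γH2AX on chromosome 3 in KO cells had -0.0484 with an adjusted p of 0.108.

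Chromosomes 5 and 6 did not pass this edgeR test. On chromosome 5 γH2AX over input was 0.025 in KO cells and 0.0278 in WT cells, and H2AX 0.0346 and 0.0475 (adjusted p 0.102 to 0.356). On chromosome 6 γH2AX was -0.0162 in KO cells and -0.0239 in WT cells, and H2AX -0.0119 and -0.0179 (adjusted p 0.0942 to 0.357). Without the bins over 1% of reads, chromosome 5 passed in H2AX of KO cells (adjusted p = 0.0214) and WT cells (adjusted p = 0.000374) and in γH2AX of WT cells (adjusted p = 0.00386). Under that scaling chromosome 6 passed in WT cells, in γH2AX (adjusted p = 0.000586) and in H2AX (adjusted p = 0.00451).

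Bin by bin, the ChIP signal over input rose and fell along each chromosome. In KO cells γH2AX was higher than input in 99 of 453 bins and lower in 186, by edgeR at an adjusted p under 0.05, against 25.3% and 36.3% of all 2582 bins. In WT cells γH2AX was higher in 146 and lower in 189 bins, against backgrounds of 34.6% and 35.3%. H2AX was higher than input in 78 and lower in 144 bins in KO cells (backgrounds 21.4% and 28.2%), and higher in 120 and lower in 126 bins in WT cells (backgrounds 30.5% and 25.9%). Bins with lower γH2AX made up 41.1% of the 453 in KO cells and 41.7% in WT cells, and each of the other shares lay within a few percentage points of its background, so the pooled counts are close to those of the whole genome. The chromosomes differed from each other. In KO H2AX, 6 bins were higher and 71 lower of 157 on chromosome 3, 53 and 34 of 149 on chromosome 5, and 19 and 39 of 147 on chromosome 6. In WT H2AX these counts were 16 and 64, 67 and 30, and 37 and 32. In both genotypes and in the same direction, 270 of the 453 bins passed in γH2AX (59.6%, against 56.7% of all bins) and 186 in H2AX (41.1%, against 43.0%).

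The split between higher and lower moved with the scaling. With DESeq2 size factors it was 127 to 152 in KO γH2AX and 98 to 122 in KO H2AX. With the autosomal total it was 89 to 209 in WT γH2AX and 84 to 184 in WT H2AX. Single libraries also mattered, and the calls over all 2582 bins fell as well in each of the cases below. For KO γH2AX, 114 calls were made with the Xray-named γH2AX library left out, 156 with NT-named input left out and 120 with Xray-named input left out. For KO H2AX, 108 calls were made with the Xray-named H2AX library left out, 130 with NT-named input left out and 138 with Xray-named input left out. In WT cells γH2AX had 213 calls without its Xray-named library, and H2AX had 132 without its Xray-named library and 156 without either input library.

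The largest γH2AX values stood in 2 bins near chromosome ends. The bin chr3:5000001-6000000, with the homeodomain factor gene Zfhx4 and the peroxisome gene Pex2, had 957.7 and 535.5 CPM of γH2AX in the NT-named and Xray-named KO libraries, against 288.3 and 290.8 CPM of KO input. In WT cells it had 715.0 and 490.9 CPM of γH2AX against 349.0 and 345.2 CPM of input. The NT-named γH2AX library was the higher of each pair, and H2AX was below input in all 4 libraries, at 252.7 to 310.4 CPM. The log2 ratio of γH2AX to input was 1.3664 in KO cells (edgeR adjusted p = 0.00243) and 0.7968 in WT cells (adjusted p = 0.0124). Without the NT-named γH2AX library it was 0.8866 in KO cells and 0.5001 in WT cells, where the call was lost (adjusted p = 0.0754), as it was without either WT input library (adjusted p 0.0542 and 0.0588).

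The bin chr5:146000001-147000000, with 20 protein-coding genes including Cdk8, a kinase of the Mediator complex, had 858.0 and 577.1 CPM of γH2AX in KO cells against 321.2 and 320.4 CPM of input. In WT cells it had 700.3 and 543.4 CPM of γH2AX against 354.6 and 357.9 CPM of input. The log2 ratio was 1.1615 in KO cells (edgeR adjusted p = 0.00119) and 0.8038 in WT cells (adjusted p = 0.00279). H2AX was far nearer to input, with 345.5 and 347.9 CPM in KO cells and 401.6 and 426.6 CPM in WT cells. The bin also holds runs of predicted genes with neighbouring numbers, and how reads of near-identical copies were placed is not stated.

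Further increases were moderate, in bins with many genes and in some with few. The bin chr5:140000001-141000000, with Mad1l1, a spindle checkpoint gene, and the Notch modifier gene Lfng, led in H2AX. It had 428.3 and 437.5 CPM of H2AX in KO cells against 332.2 and 329.9 CPM of input (log2 0.3871, adjusted p = 0.00534), and 498.0 and 522.5 CPM in WT cells against 375.2 and 378.5 CPM of input (log2 0.4374, adjusted p = 0.00233). The neighbouring bins chr3:88000001-89000000 and chr3:89000001-90000000, with 35 and 39 genes and the nuclear lamina gene Lmna, were the highest of chromosome 3 in WT H2AX, at 0.261 and 0.2495. In KO γH2AX the increases included the first bin of chromosome 6, with 6 genes, at 0.3199 (adjusted p = 0.00993) and the last of chromosome 3, with 3 genes, at 0.2231 (adjusted p = 0.0427).

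The lowest bins of chromosomes 3 and 5 held few genes. The Col11a1 bin chr3:114000001-115000000 had 275.8 and 252.1 CPM of γH2AX in KO cells against 330.7 and 328.6 CPM of input (log2 -0.3206, edgeR adjusted p = 0.00187). In WT cells it had 303.2 and 282.3 CPM of γH2AX against 377.1 and 366.8 CPM of input (log2 -0.3453, adjusted p = 0.00161). The bin chr5:80000001-81000000, in which no protein-coding gene starts, was the lowest of chromosome 5 in γH2AX, at -0.3674 in KO cells (adjusted p = 0.000753) and -0.3122 in WT cells (adjusted p = 0.00138). For H2AX, chr5:12000001-13000000 with the axon guidance gene Sema3d stood at -0.4754 in KO cells (adjusted p = 9.9e-05) and -0.4764 in WT cells (adjusted p = 7.56e-05). On chromosome 6 the Klra bin, with 12 protein-coding genes, had -0.2894 in KO γH2AX (adjusted p = 0.00303), and these genes are close copies of each other whose reads could be split among them.

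Gene content followed the ChIP signal over the 453 bins. Bins with 0 to 2 protein-coding genes (151 bins) averaged -0.134 in γH2AX over input in KO cells and -0.157 in WT cells. Bins with 3 to 7 genes (132 bins) averaged -0.023 and -0.002, those with 8 to 15 genes (111 bins) averaged 0.043 and 0.072, and those with 16 or more (59 bins) averaged 0.134 and 0.174. H2AX over input climbed in the same way, at -0.111 to 0.11 in KO cells and -0.104 to 0.148 in WT cells between the outer classes. Spearman's rho with the number of genes over bins was 0.63 in KO and 0.675 in WT γH2AX, and 0.496 and 0.539 in H2AX. On the 1961 bins of other autosomes it was 0.62 and 0.652, and 0.561 and 0.554. Bins of one chromosome share libraries and neighbours, so these coefficients describe the bins and carry no p. Mean promoter GC content moved with the signal too, at rho 0.521 in KO and 0.532 in WT γH2AX over the 425 bins with a promoter; the part of base composition in the ChIP signal was not tested.

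Between KO and WT, the assays followed gene content in different directions and over a narrow range. Spearman's rho of the log2 KO/WT value with the number of genes over the 453 bins was -0.311 for γH2AX, 0.00226 for H2AX and 0.294 for the input, against -0.102, 0.023 and 0.09 over the bins of other autosomes. On chromosome 6 it was -0.435 in γH2AX and 0.411 in input. Input averaged -0.231, -0.209, -0.202 and -0.207 in the 4 classes from few to many genes, and γH2AX averaged -0.207, -0.23, -0.231 and -0.247. The distal stretch of chromosome 5, with 13.1 genes per bin, had the highest ChIP over input of these stretches, at 0.176 in KO cells and 0.219 in WT cells for γH2AX, and 0.186 and 0.243 for H2AX. Its KO/WT input value was -0.193, like that of the rest of the chromosome.

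**Figure D4:**
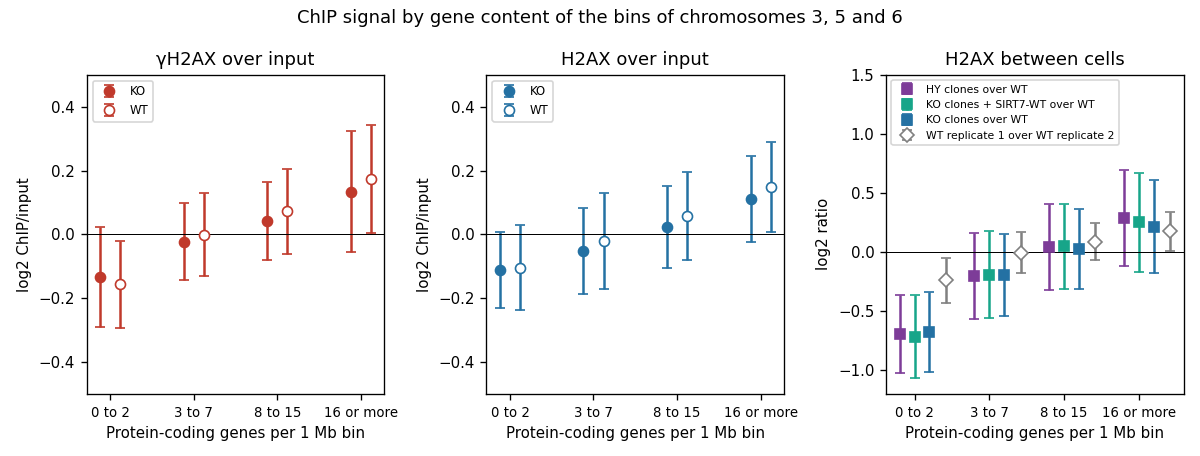
Mean log2 ratio over the bins of chromosomes 3, 5 and 6 by number of protein-coding genes per bin, with error bars of 1 SD over bins. Left and middle, γH2AX and H2AX over input in KO cells (filled) and WT cells (open); right, H2AX of the clones over WT and of WT replicate 1 over WT replicate 2. All measures climb with gene number, from -0.157 to 0.174 for γH2AX of WT cells.

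Gene lists were described by the bins that hold the genes. Their counts stand against the shares of all bins called higher and lower, 25.3% and 36.3% in KO γH2AX, 34.6% and 35.3% in WT γH2AX, 21.4% and 28.2% in KO H2AX, and 30.5% and 25.9% in WT H2AX. The DNA damage response list took 21 bins, with KO γH2AX above input in 11 and below it in 3, and WT γH2AX above in 14 and below in 2. Its median bin had 0.099 in KO cells and 0.132 in WT cells, against -0.022 and 0.0 over all 2582 bins, and held 11 genes against 5. Ung (0.3079 in KO and 0.3544 in WT cells), Xpc, which recognises bulky DNA lesions (0.2816 and 0.3268), and the replication factor C subunit Rfc5 (0.2618 and 0.3147) lay in the highest bins. The bins of Fancd2, of the Fanconi anaemia pathway, and Ogg1, which excises oxidised guanine, are one and the same, at 0.1903 and 0.2489. Brca2, the recombination mediator, lay in a bin with 0.0354 in KO cells and 0.0746 in WT cells. The lowest bins were those of Smarcad1, a chromatin remodeler, with -0.1036 and -0.0739, and Hltf, a translocase of damage tolerance, with -0.0825 and -0.1063.

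Long genes, which span large introns, lay mostly in gene-poor bins. KO γH2AX was above input in 1 of their 22 bins and below it in 12, and WT γH2AX in 1 and 14, against 25.3% and 36.3% of all bins in KO and 34.6% and 35.3% in WT cells. The list medians were -0.102 in KO and -0.159 in WT cells, with a median of 1 gene per bin, beside the means of -0.134 and -0.157 for all bins with 0 to 2 genes. Adgrl3, an adhesion receptor, had -0.299 in KO and -0.2685 in WT cells, and the follistatin-like gene Fstl5 had -0.2441 and -0.2984. The neurexin relative Cntnap2 had -0.208 and -0.2632, and the contactin Cntn6 had -0.2049 and -0.2614. Auts2, a neuronal regulator, lay in the one bin with a higher signal, at 0.1119 and 0.1449.

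Multicopy clusters, among them the vomeronasal receptors, immunoglobulin kappa segments and bitter taste receptors, took 36 bins with 378 genes. KO γH2AX was above input in 4 of these bins and below it in 24, against 25.3% and 36.3% of all bins, and WT γH2AX in 5 and 21, against 34.6% and 35.3%. The copies resemble each other, so their reads are less certain. Fibroblast and matrix genes took 18 bins, 5 higher and 4 lower in KO γH2AX and 8 and 3 in WT γH2AX. The elastin gene Eln had 0.2949 and 0.3384 and the actin gene Actb 0.2605 and 0.3211, whereas Hgf, a growth factor, had -0.2399 and -0.1995 and Col1a2, a chain of type I collagen, -0.1213 and -0.1109. Growth and chromatin regulators took 23 bins, 9 higher and 2 lower in KO γH2AX and 15 and 3 in WT γH2AX, with the histone methyltransferase Ezh2 at 0.2388 and 0.2932. The 4 bins of imprinted genes had 1 higher and 2 lower in each genotype, and the Hoxa bin had 0.0447 in KO and 0.0914 in WT cells. Between KO and WT every list bin lay below 0 in all 3 assays, with list medians of -0.216 to -0.285. So did 452 of all 453 bins in input, 451 in H2AX and 450 in γH2AX, on chromosomes chosen by this contrast. H2AX over input followed γH2AX in most lists. It was higher in 12 and lower in 3 damage response bins in KO cells, and 14 and 1 in WT cells. For long genes the counts were 3 and 6 in KO cells and 3 and 7 in WT cells, for multicopy clusters 4 and 19 in KO cells and 4 and 12 in WT cells, and for growth and chromatin regulators 5 and 2 in KO cells and 10 and 3 in WT cells. Fibroblast and matrix genes were evenly split in H2AX, at 7 and 7 in KO cells and 8 and 8 in WT cells.

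The clones were compared with WT cells and with each other in the second table, whose KO clones are separate samples from the KO cells above. Chromosome 6 again held a smaller share in KO clones. In H2AX it took 5.106% and 4.296% of autosomal reads in the HY clones, 4.390% and 4.460% in KO clones with SIRT7-WT and 4.422% and 4.407% in KO clones, against 5.191% and 5.305% in WT cells. The HY clones were split, replicate 1 near WT and replicate 2 below all others. Against WT, chromosome 6 in H2AX stood at -0.1588 in HY clones (edgeR adjusted p = 0.141), -0.246 in KO clones with SIRT7-WT (adjusted p = 0.0292) and -0.2494 in KO clones (adjusted p = 0.0269), with a standard error of 0.0838. The calls were lost when any 1 of the 4 libraries was left out, with adjusted p between 0.068 and 0.137 for KO clones and between 0.0723 and 0.145 for KO clones with SIRT7-WT. Without WT replicate 2, the library shared with the first table, the log2 values were -0.2302 in KO clones with SIRT7-WT and -0.2336 in KO clones.

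In γH2AX chromosome 6 took 5.360% and 4.627% in the HY clones, 4.633% and 4.664% in KO clones with SIRT7-WT and 4.669% and 4.756% in KO clones, against 5.152% and 5.238% in WT cells. The log2 values against WT were -0.0571, -0.1604 and -0.1408 in that order of clones, and none passed (edgeR adjusted p 0.675, 0.124 and 0.189). The comparisons of the 3 clone groups share the WT libraries. Input of the clones was not used here, so DNA content and ChIP cannot be separated in them, nor can clone type be told apart from other differences between the clone and WT libraries.

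Chromosomes 3 and 5 were not lowered alike in the clones. Chromosome 3 in γH2AX took 5.682% and 4.854% in HY clones, 6.230% and 5.346% in KO clones with SIRT7-WT and 6.392% and 5.544% in KO clones, against 5.539% and 5.813% in WT cells. In H2AX it took 5.009% and 4.087%, 5.348% and 4.702%, and 5.445% and 4.678% in these clone groups, against 5.382% and 5.754% in WT cells. Replicate 2 was lower than replicate 1 in every clone group, and the gap between the replicates was as wide as most differences between groups. Chromosome 5 in H2AX took 6.019% and 6.872% in HY clones, 6.676% and 6.050% in KO clones with SIRT7-WT and 6.578% and 6.096% in KO clones, against 6.212% and 5.986% in WT cells. In γH2AX it took 5.664% and 6.192%, 6.139% and 5.558%, and 6.181% and 5.583%, against 6.049% and 5.829% in WT cells.

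No edgeR test of chromosome 3 or 5 against WT passed. The lowest was chromosome 3 in H2AX of HY clones, at -0.2919 with a standard error of 0.118 (adjusted p = 0.0729), and without HY replicate 1 it was -0.4461 (adjusted p = 0.0171). Without HY replicate 1, chromosome 6 in H2AX was also past the threshold, at -0.2889 (adjusted p = 0.0181).

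**Figure D5:**
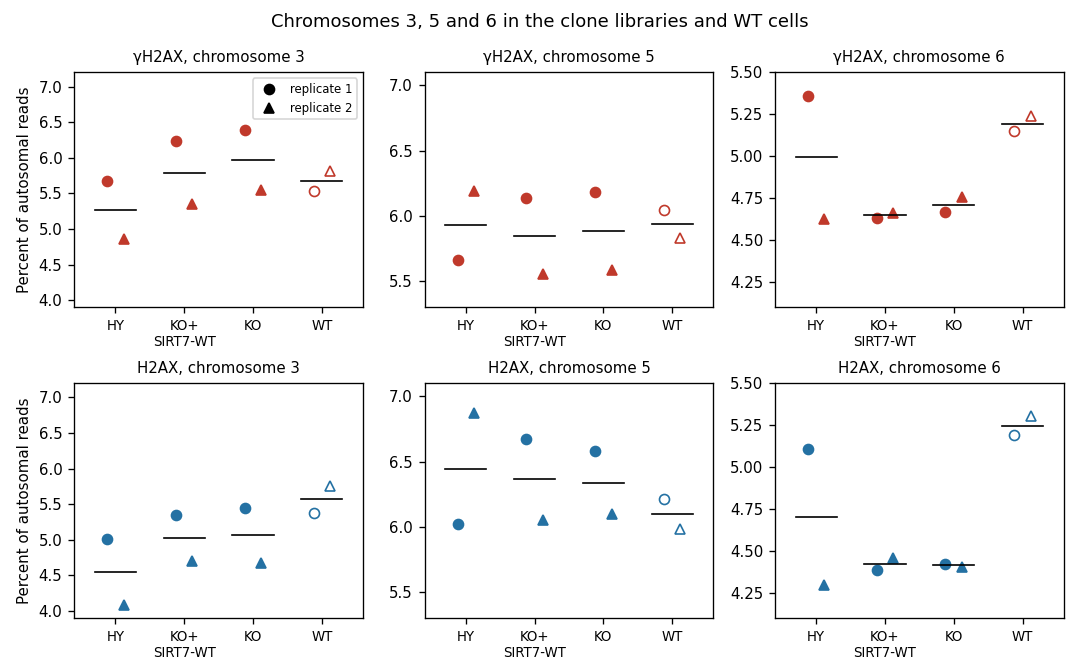
Percent of autosomal reads on chromosomes 3, 5 and 6 (vertical axes, which do not start at 0) in each γH2AX and H2AX library of HY clones, KO clones with SIRT7-WT, KO clones and WT cells; circles are replicate 1, triangles replicate 2 and the black line their mean. KO clones with and without SIRT7-WT lie below WT on chromosome 6 in both assays, and the replicates spread widely on chromosomes 3 and 5.

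These shares depend on a few bins elsewhere. The bin chr2:98000001-99000000 alone took 1.188% to 2.047% of autosomal reads in the clone libraries, against 5.749% to 7.045% in the WT libraries of the same table. It was left out together with every other bin over 1% of reads, so its own part in the clone values was not tested. Without the bins over 1% of reads, chromosome 6 in γH2AX was at -0.1808 in HY clones (edgeR adjusted p = 0.164), -0.2771 in KO clones with SIRT7-WT (adjusted p = 0.0311) and -0.2589 in KO clones (adjusted p = 0.028). In H2AX it was at -0.2848, -0.371 and -0.3691 in these clones (adjusted p = 0.0145, 0.0043 and 0.00552). Chromosome 3 in H2AX of HY clones reached -0.418 (adjusted p = 0.0145). Chromosome 5 in H2AX turned from above to below WT, at -0.0461, -0.0636 and -0.0642. This scaling was added after seeing the data.

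No difference between the clone groups passed the test on the 3 chromosomes. KO clones with SIRT7-WT minus KO clones gave -0.0442, -0.0082 and -0.0196 on chromosomes 3, 5 and 6 in γH2AX, and -0.0104, 0.0059 and 0.0034 in H2AX. The standard errors were 0.118, 0.0861 and 0.0838. They come from a fit without the pairing of these clones, so they include the gap between clones. Within same-numbered clones, chromosome 3 took 5.348% and 4.702% of H2AX reads with SIRT7-WT, against 5.445% and 4.678% without. In γH2AX it took 6.23% and 5.346%, against 6.392% and 5.544%. HY clones minus KO clones gave -0.1801, 0.0112 and 0.0838 in γH2AX and -0.1545, 0.0245 and 0.0906 in H2AX (edgeR adjusted p 0.369 to 0.945). With these errors, a difference between HY and KO clones of the size seen between KO and WT cells would have been hard to detect on chromosomes 3 and 5. On chromosome 6, H2AX differences of about that size between KO clones and WT passed with the same error, but not with any 1 library left out. No γH2AX difference was shown to depart from the H2AX difference in a clone comparison, with γH2AX minus H2AX between -0.0832 and 0.2099 (edgeR adjusted p 0.906 to 0.997). Same-numbered γH2AX and H2AX libraries deviated together over bins, at r = 0.436 in KO clones and 0.845 in KO clones with SIRT7-WT. In HY clones r was 0.678 and in WT cells 0.986. The fit did not pair them, so its errors include the gap between same-group libraries, and a shift of γH2AX against H2AX could be missed.

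Bin by bin, H2AX separated the clones from WT cells. In HY clones 71 of 453 bins were higher than WT and 219 lower by edgeR, in KO clones with SIRT7-WT 65 and 214, and in KO clones 48 and 211. The backgrounds over all 2582 bins were 28.2% and 32.9%, 27.5% and 33.2%, and 25.5% and 31.6%. The lower bins made up 48.3%, 47.2% and 46.6% of the 453 bins, and the higher ones 15.7%, 14.3% and 10.6%. Without WT replicate 2, fewer bins were called in each clone group, among the 453 and over all 2582 bins, and most of those among the 453 were lower.

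Gene-poor bins led the decreases. Bins with 0 to 2 genes averaged -0.692 in HY clones, -0.716 in KO clones with SIRT7-WT and -0.678 in KO clones, and bins with 16 or more genes averaged 0.29, 0.252 and 0.215. The 2 WT libraries differed from each other along the same gradient, WT replicate 1 over WT replicate 2 averaging -0.239 in bins with 0 to 2 genes and 0.175 in those with 16 or more. On the other autosomes the KO clones averaged -0.435 and 0.371 in these classes. Among the lists, none of the 22 long-gene bins was higher and 13 were lower in KO clones (median -0.675), none of 36 multicopy bins was higher and 28 were lower (median -0.524), and of the 21 damage response bins 7 were higher and 4 lower (median 0.246). Fibroblast and matrix bins had 4 and 4, growth and chromatin regulators 1 and 1, and imprinted genes 0 and 3.

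Named bins show the size of this. The Cntnap2 bin chr6:45000001-46000000 had 129.6 and 106.0 CPM of H2AX in HY clones, 105.6 and 106.7 CPM in KO clones with SIRT7-WT and 114.6 and 105.3 CPM in KO clones, against 215.6 and 299.6 CPM in WT cells. KO clones over WT was -1.2281 on the log2 scale (edgeR adjusted p = 0.000125). The bin of the glutamate receptor gene Grm7 had -1.1851 (adjusted p = 0.000112), and that of Cntn4, a contactin, had -1.0458. At the other end, the bin chr5:140000001-141000000 had 874.5 and 1072 CPM in HY clones, 982.5 and 888.0 CPM in KO clones with SIRT7-WT and 893.3 and 904.0 CPM in KO clones, against 655.4 and 508.2 CPM in WT cells. There KO clones over WT was 0.6274 (adjusted p = 0.00639), a call that was lost without WT replicate 2 (0.4737, adjusted p = 0.0659). The Lmna bin had 0.5646 (adjusted p = 0.0142), which was lost without WT replicate 2 (adjusted p = 0.0913) or KO clone replicate 1 (adjusted p = 0.0512).

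The Chl1 bin chr6:103000001-104000000 stood apart. Its H2AX was 216.4 and 184.4 CPM in HY clones, 198.8 and 190.3 CPM in KO clones with SIRT7-WT and 202.6 and 182.8 CPM in KO clones, against 709.1 and 1274 CPM in WT cells, a log2 value of -2.363 for KO clones (edgeR adjusted p = 0.000112). The 2 WT libraries differed widely, and both lay well above all 6 clone libraries. γH2AX did not follow, with 929.1 and 1244 CPM in HY clones, 899.2 and 934.8 CPM in KO clones with SIRT7-WT and 890.9 and 1241 CPM in KO clones, against 700.5 and 1456 CPM in WT cells. WT input had 1509 and 1470 CPM, again several times an ordinary bin.

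γH2AX of the clones was below WT in most bins, but few passed the test. HY clones lay below WT in 444 of 453 bins, KO clones with SIRT7-WT in 418 and KO clones in 416, with medians of -0.187, -0.161 and -0.161. Over all 2582 bins the medians were 0.011, 0.001 and -0.028, and scaling by the autosomal total moves them to 0.133, 0.118 and 0.132. The lowering is therefore relative to other bins, and by shares of autosomal reads chromosome 3 lay at 0.0282 in KO clones with SIRT7-WT and 0.0724 in KO clones, above WT. By edgeR 2 bins were called in HY clones, 2 in KO clones with SIRT7-WT and 4 in KO clones, all of them lower, against 0.542%, 0.93% and 0.891% of all bins called lower and 0.658%, 1.39% and 1.05% called in either direction. Without WT replicate 2 there were 0 in each, and without any other single library 0 or 1. All 147 bins of chromosome 6 lay below WT in KO clones under this TMM scaling.

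The bins called included those with the γH2AX peaks of the first table. The bin chr3:5000001-6000000 had 348.2 and 350.3 CPM of γH2AX in HY clones, 361.1 and 488.4 CPM in KO clones with SIRT7-WT and 398.4 and 346.7 CPM in KO clones, against 596.5 and 727.1 CPM in WT cells. It was at -0.9221 in HY clones (edgeR adjusted p = 0.00921) and -0.829 in KO clones (adjusted p = 0.0151). The bin chr5:146000001-147000000 had 463.8 and 471.3 CPM, 457.2 and 550.9 CPM, and 498.3 and 401.8 CPM in these clones, against 750.6 and 712.1 CPM in WT cells. It was at -0.6454 in HY clones (adjusted p = 0.0373) and -0.7004 in KO clones (adjusted p = 0.0146). In the KO cells of the first table both bins were higher than in WT cells, so KO clones and KO cells lay on opposite sides of WT there.

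The rest of these calls were on chromosomes 5 and 6. The bin chr5:104000001-105000000, with the secreted matrix genes Sparcl1 and Spp1, had 365.5 and 389.0 CPM of γH2AX in HY clones, 379.4 and 353.7 CPM in KO clones with SIRT7-WT and 377.6 and 348.8 CPM in KO clones, against 507.5 and 514.3 CPM in WT cells. It was at -0.4791 in KO clones with SIRT7-WT (edgeR adjusted p = 0.0235) and -0.4923 in KO clones (adjusted p = 0.0231). The Ezh2 bin chr6:47000001-48000000 was at -0.5507 in KO clones (adjusted p = 0.0374), and chr6:141000001-142000000, with organic anion transporter genes, at -0.471 in KO clones with SIRT7-WT (adjusted p = 0.0332). Each of these calls against WT, those of the γH2AX peaks included, was lost when WT replicate 2 was left out, and 5 of these 8 calls were lost with any 1 of the 4 libraries left out.

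Between the clone groups little moved on these chromosomes. KO clones with SIRT7-WT against KO clones gave 0 called bins by edgeR in γH2AX, where 0.0387% of all bins were called, and 0 in H2AX, where the background was 0.0%. At an unadjusted p under 0.05 the count was 0 in both assays, and DESeq2 also called 0. HY clones against KO clones gave 0 bins in H2AX (background 2.79%), with 1 at an unadjusted p under 0.05 and 1 by DESeq2, and 1 bin in γH2AX (background 1.2%). That bin was the end of chromosome 6, chr6:149000001-149736546, with 446.5 and 290.5 CPM in HY clones against 228.2 and 184.1 CPM in KO clones, a log2 value of 0.8381 (adjusted p = 0.0369). The call was lost without HY replicate 1, where the log2 value was 0.4953, and without either KO clone replicate. HY replicate 1 was also high in γH2AX over the last 2 bins of chromosome 5, chosen here after their values were seen, with 578.8 and 815.7 CPM against 376.3 and 348.4 CPM in HY replicate 2.

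Although no bin passed the test, γH2AX of KO clones with SIRT7-WT over KO clones was ordered by gene content. Bins with 0 to 2 genes averaged -0.099, those with 3 to 7 averaged -0.001, those with 8 to 15 averaged 0.058 and those with 16 or more averaged 0.143. On the other autosomes the classes averaged -0.08, 0.021, 0.081 and 0.155. The 2 WT γH2AX libraries differed from each other over a wider range in the same direction, WT replicate 1 over WT replicate 2 averaging -0.232 in bins with 0 to 2 genes and 0.164 in those with 16 or more. H2AX of the same clones spanned a narrower range, from -0.038 to 0.037.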

How the data were processed

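Values are read counts per 1 Mb bin, deposited by the authors in 2 tables for 24 samples in 12 groups: γH2AX, H2AX and input in KO and WT cells, and γH2AX and H2AX in clones beside WT. Per the labels' protocols, DNA came from sheared chromatin of 300 to 500 bp fragments. Per the submitters' processing notes, the build was mm10 and the tools included Bowtie2 2.2.9, Trimmomatic 0.36 and deepTools 2.4.2; how reads mapping to several places were treated is not given in the sources used here. Of 144 value columns, 96 were not used here. By their names, the NT-named and Xray-named columns match a group only. The counts of the NT-named WT columns are those of WT replicate 2 in the second table.

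Bins with a mean of at least 100 counts were tested with edgeR 4.0.16 (R 4.3.3) by quasi-likelihood F tests, 2-sided, on TMM-scaled counts over all libraries of a table (12 and 18), adjusted by Benjamini-Hochberg over all bins of a comparison, with a threshold of 0.05. Chromosome sums were scaled by the autosomal total and adjusted over 20 chromosomes. Log2 values are fitted differences, CPM are counts scaled to a common library total, and shares are percent of autosomal reads. Fitted libraries of a group varied by 3.23% (biological coefficient of variation) in the KO and WT table and 10.5% in the clone table. An exact permutation test of 2 against 2 libraries cannot go below p = 0.333, so no single value was tested alone. Alternatives were DESeq2 1.42.0 size factors and Wald test, other totals, the compared groups alone, a replicate block, no count minimum and each library left out.

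Same-numbered KO clones with SIRT7-WT and KO clones are named for the same clones in the labels and deviated together over bins (r = 0.854 in γH2AX and 0.936 in H2AX), so they count as paired. Bins are named by a rule: per chromosome and comparison, up to 3 increases and 3 decreases past the threshold, the first, last and extreme input bins, and bins of list genes. Genes were placed by RefSeq start. The chromosomes, bins and gene lists were chosen with earlier results of these data known.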

Additional observations from a re-analysis of the deposited data

How the results depend on the processing

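The 3 chromosomes stayed the lowest in KO against WT under each scaling tried; in input, TMM gave -0.2623, -0.2572 and -0.3023 on chromosomes 3, 5 and 6, and leaving out the bins over 1% of reads gave -0.228, -0.2229 and -0.2681. Numbers of called bins moved by over 1.5 times as follows. With the compared groups alone, KO γH2AX over input had 148 and KO H2AX 382, against 917 and 2071 over all 2582 bins. There γH2AX of KO clones with SIRT7-WT against WT had 4, against 73 over all bins. HY against KO clones had 0 in γH2AX and 1 in H2AX, against 0 and 129 over all bins. With the autosomal total, γH2AX of KO clones with SIRT7-WT against WT had 1, against 198 over all bins. DESeq2's Wald test called 32 bins in that comparison, 14 in γH2AX of KO clones against WT and 1 in H2AX of HY against KO clones. Over all bins it called 137, 94 and 171. Leaving out 1 library gave 114 to 338 bins in KO γH2AX over input, 108 to 150 in KO H2AX, 213 to 358 in WT γH2AX and 132 to 203 in WT H2AX. It gave 0 to 1 in γH2AX of each clone group against WT, 0 to 3 in γH2AX of HY against KO clones, 197 to 277, 186 to 267 and 156 to 256 in H2AX of HY clones, KO clones with SIRT7-WT and KO clones against WT, and 0 to 0 in the rest. The counts with 1 library left out cover the 453 bins alone, so they say nothing about these chromosomes relative to other bins. The cause of these changes was not tested.

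With a replicate block, the numbers were 231, 198 and 201 in γH2AX of HY clones, KO clones with SIRT7-WT and KO clones against WT. They were 80 in γH2AX and 66 in H2AX of HY against KO clones. Same-numbered γH2AX libraries deviated together between KO or HY clones and WT or each other (r = 0.37 to 0.612). Between KO clones with SIRT7-WT and WT, r was 0.273. The labels tie no WT or HY library to a KO clone, so the number was not taken to pair these groups. Within a group, same-numbered γH2AX and H2AX libraries also deviated together. There r was 0.986 in WT cells, 0.678 in HY clones, 0.845 in KO clones with SIRT7-WT and 0.436 in KO clones. The main fit did not use this, so the block counts stand beside it as an alternative. Where the clones are paired, KO clones with SIRT7-WT against KO clones, the block gave 0 bins in both assays and changed no call. In KO and WT cells same-named libraries deviated together in γH2AX (r = 0.959), H2AX (0.68) and input (0.486) of KO against WT and in input and H2AX of WT (0.472). They deviated in opposite directions in input and γH2AX of KO (r = -0.526) and WT (r = -0.208), so the names were not taken as a pairing. Over input, the block gave 296 and 252 bins in KO γH2AX and H2AX, and 337 and 287 in WT. Over all bins it called 1658 and 1422 in KO, and 1840 and 1597 in WT. The block also gave 387, 379 and 368 in H2AX of the clones against WT, and 2227, 2215 and 2168 over all bins. Chromosome 5 in WT H2AX over input had 0.0474 with the block (edgeR adjusted p = 0.0416).

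None of the chromosome values that turned round had passed the test. Without the bins over 1% of reads, γH2AX on chromosome 3 was -0.0893 in KO clones with SIRT7-WT and -0.0465 in KO clones against WT; H2AX on chromosome 5 was -0.0461, -0.0636 and -0.0642 in HY clones, KO clones with SIRT7-WT and KO clones; and H2AX of KO clones with SIRT7-WT against KO clones was -0.0019 on chromosome 6. With DESeq2 size factors, KO clones with SIRT7-WT had -0.0087 on chromosome 3 in γH2AX and -0.0066 on chromosome 5 in H2AX, and KO clones -0.0144 on chromosome 5. Leaving out 1 library, WT γH2AX over input ran from -0.0024 to 0.0573 on chromosome 5. Against WT in γH2AX, HY clones ran from -0.2257 to 0.0015, -0.0683 to 0.0603 and -0.1671 to 0.0451 on chromosomes 3, 5 and 6. KO clones with SIRT7-WT ran from -0.0865 to 0.1344 and -0.0955 to 0.048 on chromosomes 3 and 5, and KO clones from -0.0338 to 0.1713 and -0.0891 to 0.0578. In H2AX on chromosome 5, HY clones ran from -0.0189 to 0.1722, KO clones with SIRT7-WT from -0.0115 to 0.1304 and KO clones from -0.0007 to 0.1092. KO clones with SIRT7-WT against KO clones ran from -0.1589 to 0.062 and -0.0818 to 0.0671 in γH2AX on chromosomes 3 and 5, and from -0.1158 to 0.1033, -0.0668 to 0.0751 and -0.0081 to 0.0148 in H2AX on chromosomes 3, 5 and 6. Leaving out 1 library breaks the pairing of these clones, so the ranges of this comparison include the gap between clones. HY against KO clones ran from -0.0604 to 0.0865 and -0.0262 to 0.186 in γH2AX, and from -0.0742 to 0.117 and -0.0395 to 0.2099 in H2AX, on chromosomes 5 and 6.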
